A study of Mus musculus with 10 samples.

Results

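Contactins and contactin-associated proteins are adhesion molecules of the neuronal surface, and 10 genes of these families were described here in the cortical hem (CH) of the embryonic mouse. They were chosen by name: *Cntn1* to *Cntn6* of the contactins, and *Cntnap1*, *Cntnap2*, *Cntnap4* and *Cntnap5a* of the contactin-associated proteins. All 10 were among the 52227 genes of the count table, and 9 were among the 21664 genes that were tested, namely those counted 10 times or more in 3 or more libraries. *Cntnap5a* did not pass this filter.

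The CH is the signaling center at the dorsomedial edge of the telencephalon that makes Cajal–Retzius (CR) cells and borders the choroid plexus. RNA was sequenced from CH collected by laser capture at e13.5, in 1 library for each of 5 wild-type and 5 Lmx1a-/- embryos. The Lmx1a-/- embryos carried the spontaneous dreher allele *drJ* on both chromosomes, a loss-of-function allele of the LIM-homeodomain transcription factor *Lmx1a*, and the mice were of mixed C57Bl6, FVB and CD1 background. No treatment was given, the allele is carried in every cell of the embryo, and the CH was found by Lmx1a immunostaining of neighboring sections.

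Contactins are held in the outer membrane by a lipid anchor and carry immunoglobulin and fibronectin type III domains. Contactin-associated proteins, also called Caspr proteins, are transmembrane relatives of neurexins. A contactin and a Caspr protein often work as a pair: *Cntn1* with *Cntnap1* at the paranodal junctions of myelinated axons, and *Cntn2* with *Cntnap2* at the juxtaparanodes, where they gather potassium channels. Before myelination, members of both families act in axon outgrowth, fasciculation and synapse formation.

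Promoter sequences are shown for *Cntnap2*, *Cntn3* and *Cntn5*, 3 members whose counts differed between genotypes, because LIM-homeodomain proteins bind AT-rich DNA with a TAAT core. Each is a window of the RefSeq annotation of GRCm38.p6, 5′ to 3′ on the strand of the gene, with 250 bases before and 50 bases from the annotated start. Capitals mark TAAT or its reverse complement ATTA. The windows lie at chr6:45059811-45060110 (plus strand, *Cntnap2*), chr6:102464618-102464917 (minus strand, *Cntn3*) and chr9:10904677-10904976 (minus strand, *Cntn5*).
Cntnap2: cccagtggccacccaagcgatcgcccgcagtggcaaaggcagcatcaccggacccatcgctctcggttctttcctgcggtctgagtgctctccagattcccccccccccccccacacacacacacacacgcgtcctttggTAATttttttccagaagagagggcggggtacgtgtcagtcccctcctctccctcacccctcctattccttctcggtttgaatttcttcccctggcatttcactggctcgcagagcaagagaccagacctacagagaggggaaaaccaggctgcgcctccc
Cntn3: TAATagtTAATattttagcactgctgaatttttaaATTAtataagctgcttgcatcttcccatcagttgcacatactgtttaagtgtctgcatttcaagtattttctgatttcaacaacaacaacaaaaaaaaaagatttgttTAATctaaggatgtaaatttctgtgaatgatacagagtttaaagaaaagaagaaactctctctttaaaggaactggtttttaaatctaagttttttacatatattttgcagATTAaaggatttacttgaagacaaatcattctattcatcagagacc
Cntn5: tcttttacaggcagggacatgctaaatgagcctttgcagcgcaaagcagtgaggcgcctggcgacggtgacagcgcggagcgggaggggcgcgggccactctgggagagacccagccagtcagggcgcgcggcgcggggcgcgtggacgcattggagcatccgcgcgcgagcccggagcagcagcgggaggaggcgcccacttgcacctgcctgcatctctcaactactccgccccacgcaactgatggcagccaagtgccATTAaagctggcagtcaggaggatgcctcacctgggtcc

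The windows differ in composition. The *Cntn3* window has a GC content of 27.7%, no CpG and 5 copies of TAAT or ATTA. It lies wholly inside the span that GENCODE gives the gene and far from the 5′ end of that span (102573101), so it surrounds an internal start. The *Cntnap2* window also lies inside the span of its gene, but near the 5′ end (45059357). The *Cntn5* window has a GC content of 66.7% and 26 CpG, and the *Cntnap2* window 59.7% and 14 CpG, with 1 copy of the core in each. *Cntnap2* and *Cntn5* have 2 windows each, of which the one listed first is printed. The other *Cntnap2* window, at chr6:47244146-47244445, has 46.3% GC, 3 CpG and 4 copies. The other *Cntn5* window, at chr9:10904726-10905025, has 63.7% GC, 26 CpG and 0 copies. Its start is the 5′ end of the GENCODE span of *Cntn5* (10904775), while the start of the printed *Cntn5* window lies inside that span. Over all 32841 windows of the same length, the median was 52.7% GC, 7 CpG and 1 copy, and 58% held TAAT on either strand. The longer palindrome TAATTA was in 5.3% of all windows and in none of the 3 printed. Windows were given for 7 of the 10 members, and *Cntnap1*, *Cntnap4* and *Cntnap5a* have no entry. A match describes letters, not a bound site.

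Most of the family lies in long genes. In GRCm38, *Cntnap2* spans 2244.9 kb (chromosome 6, 45059357 to 47304213, plus strand), *Cntn5* 1243.9 kb (chromosome 9, 9660891 to 10904775, minus strand) and *Cntn4* 1021.7 kb (chromosome 6, 105677660 to 106699310, plus strand). *Cntnap5a* spans 902.6 kb (chromosome 1, 115684756 to 116587323, plus strand), *Cntn3* 410.4 kb (chromosome 6, 102162655 to 102573101, minus strand) and *Cntn6* 370.6 kb (chromosome 6, 104492790 to 104863406, plus strand). *Cntnap4* spans 312.7 kb (chromosome 8, 112570043 to 112882717, plus strand) and *Cntn1* 290.8 kb (chromosome 15, 92051165 to 92341967, plus strand). Short by comparison are *Cntn2* with 33.8 kb (chromosome 1, 132509427 to 132543256, minus strand) and *Cntnap1* with 20.2 kb (chromosome 11, 101170523 to 101190724, plus strand). The median span of 22028 protein-coding genes was 17.3 kb. *Cntn3*, *Cntn6* and *Cntn4* follow each other on chromosome 6, with gaps of 1919.7 kb and 814.3 kb.

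Levels are normalized CPM (counts scaled to library size), given as mean ± SD over 5 embryos, and levels of different genes are compared as CPM per kb of exon. In wild-type CH, *Cntnap2* stood far above its relatives with 39.7 ± 9.05 CPM per kb. *Cntnap4* followed with 3.36 ± 0.617, *Cntn2* with 2.94 ± 0.739, *Cntn3* with 1.43 ± 0.381 and *Cntn5* with 1.13 ± 0.174 CPM per kb. *Cntn1* had 0.514 ± 0.165, *Cntn4* 0.452 ± 0.387, *Cntnap1* 0.202 ± 0.156, *Cntn6* 0.166 ± 0.117 and *Cntnap5a* 0.0185 ± 0.024 CPM per kb. Between neighbors in this order, the wild-type libraries were apart for *Cntnap2* and *Cntnap4*, *Cntn2* and *Cntn3*, *Cntn5* and *Cntn1*, and *Cntn6* and *Cntnap5a*, and the other neighbors overlapped.

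**Figure D1:**
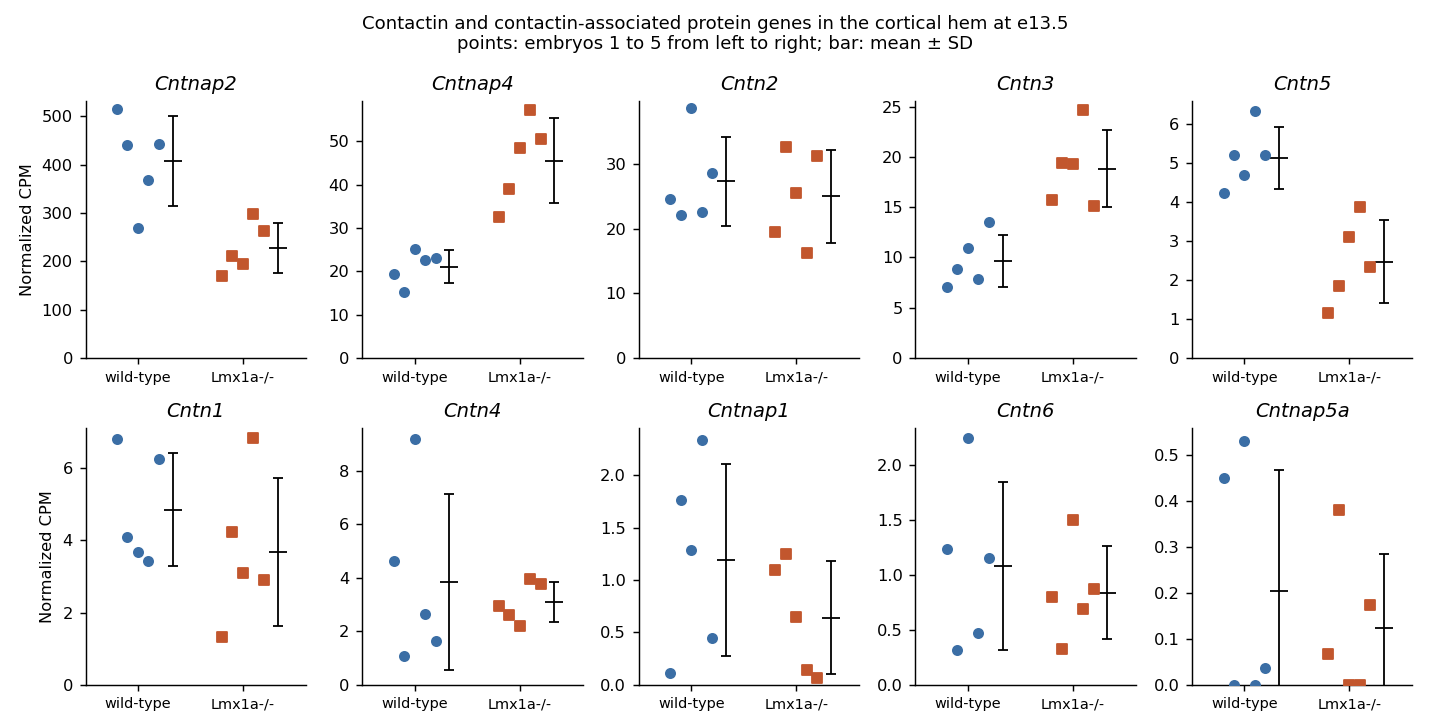
Normalized CPM of the 10 members in each library, wild-type and Lmx1a-/-, with 1 point per embryo and bars for mean ± SD (n = 5 per genotype), on a linear axis of its own in each panel. The genotypes are apart for *Cntn3*, *Cntn5* and *Cntnap4*, cross at a single wild-type library for *Cntnap2*, and overlap widely for the others. The lower SD bar of *Cntnap5a* is cut at 0.

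The question of the comparison was which genes depend on *Lmx1a* in the CH. All 21664 genes entered edgeR's quasi-likelihood test, the threshold was a false discovery rate (FDR, by Benjamini-Hochberg) under 0.1, and fold changes are Lmx1a-/- over wild-type. *Cntnap2* and *Cntn5* fell in Lmx1a-/- CH and *Cntnap4* and *Cntn3* rose, each by between 1.79-fold and 2.16-fold, and the other 5 tested members did not pass. Thus 2 of 9 tested members were lower, where 2.29% of all tested genes were, and 2 of 9 were higher, where 1.72% were (4.02% in either direction). Libraries of the 2 genotypes did not overlap for 1 member that was lower and 2 that were higher. Over all tested genes this held for 2.27% and 2.17% (4.44% in either direction). The study had already reported *Cntnap2* as lower in these data, and the members were chosen with earlier results known. These shares are therefore a description and not a test of the family. The median log2 fold change was -0.371 over the 9 members and -0.005 over all tested genes. In bulk tissue, fewer cells of a type and less RNA per cell cannot be told apart.

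*Cntnap2* encodes Caspr2, the partner of contactin 2 and an anchor of potassium channels, and is known for recessive variants that cause epilepsy and cortical malformation in people. Its level was 515, 440, 269, 369 and 442 CPM in wild-type embryos 1 to 5, and 170, 212, 195, 297 and 262 CPM in Lmx1a-/- embryos 1 to 5. All but 1 of the Lmx1a-/- embryos were below every wild-type embryo, and the genotypes crossed where wild-type embryo 3 (269 CPM) lay below Lmx1a-/- embryo 4 (297 CPM). The mean fell from 407 ± 92.8 CPM to 227 ± 51.5 CPM, which is -0.84 on the log2 scale (SE 0.17, 95% interval -1.22 to -0.47, FDR = 0.0248, edgeR's quasi-likelihood test), or 1.79-fold lower. Counts lay between 3893 and 13792, the deepest of the family.

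*Cntn5* encodes contactin 5, or NB-2, which guides and maintains synaptic contacts in the auditory and sensory systems. Its level was 4.22, 5.19, 4.68, 6.33 and 5.21 CPM in wild-type embryos 1 to 5, and 1.16, 1.85, 3.1, 3.88 and 2.33 CPM in Lmx1a-/- embryos 1 to 5. Every Lmx1a-/- embryo was below every wild-type embryo, with 3.88 against 4.22 CPM at the closest. The mean fell from 5.12 ± 0.789 CPM to 2.46 ± 1.06 CPM, which is -1.05 on the log2 scale (SE 0.3, 95% interval -1.69 to -0.41, FDR = 0.0913, edgeR's quasi-likelihood test), or 2.07-fold lower. These values rest on 34 to 159 counts per library, and the FDR was close to the threshold: in 8 of 10 fits with an embryo left out it was above, up to 0.182, and only without Lmx1a-/- embryo 3 or 4 did it stay under 0.1. Of its exon sequence, 6.4% is shared with the antisense gene *Gm32710*, whose reads cannot be told apart without strand.

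*Cntnap4* encodes Caspr4, a presynaptic protein of interneurons and dopamine neurons that also binds contactin 5. Its level was 19.4, 15.2, 25.2, 22.6 and 23 CPM in wild-type embryos 1 to 5, and 32.5, 38.9, 48.5, 57.2 and 50.4 CPM in Lmx1a-/- embryos 1 to 5. The genotypes did not overlap, and the lowest Lmx1a-/- embryo was above the highest wild-type embryo by 32.5 against 25.2 CPM. The mean rose from 21.1 ± 3.88 CPM to 45.5 ± 9.79 CPM, which is 1.11 on the log2 scale (SE 0.17, 95% interval 0.75 to 1.47, FDR = 0.00366, edgeR's quasi-likelihood test), or 2.16-fold. This was the smallest p of the family, at rank 80 among all tested genes. The antisense gene *Gm45904* overlaps 8.01% of its exon sequence.

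*Cntn3* encodes contactin 3, or BIG-1, which promotes neurite outgrowth. Its level was 7.09, 8.88, 10.9, 7.89 and 13.5 CPM in wild-type embryos 1 to 5, and 15.7, 19.4, 19.3, 24.7 and 15.1 CPM in Lmx1a-/- embryos 1 to 5. The genotypes were apart, with 13.5 CPM in the highest wild-type and 15.1 CPM in the lowest Lmx1a-/- embryo. The mean rose from 9.64 ± 2.57 CPM to 18.9 ± 3.82 CPM, which is 0.97 on the log2 scale (SE 0.19, 95% interval 0.55 to 1.38, FDR = 0.0217, edgeR's quasi-likelihood test), or 1.95-fold.

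**Figure D2:**
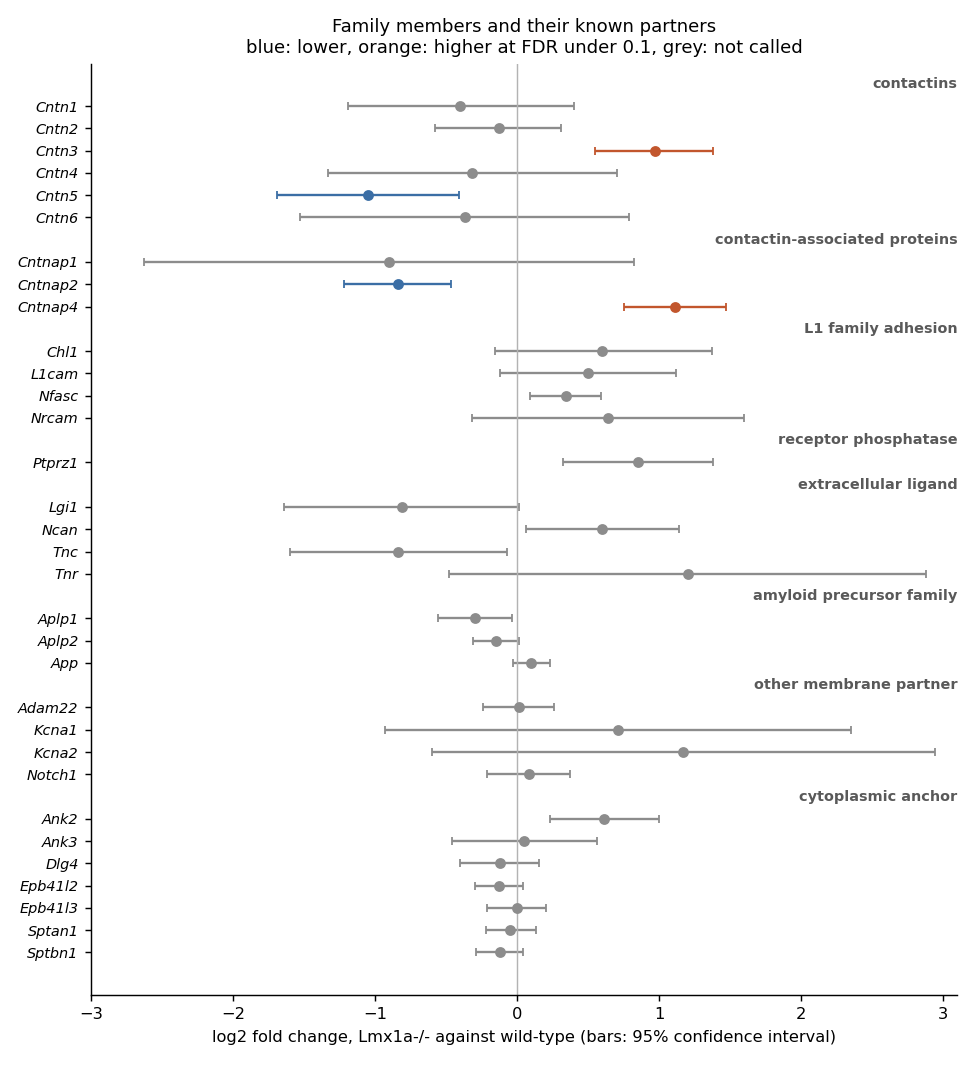
Log2 fold change of each tested member and partner, Lmx1a-/- over wild-type, with bars for the 95% interval (n = 5 embryos per genotype). Blue points were lower and orange points higher at an FDR under 0.1, and grey points did not pass. *Cntnap4* (1.11) and *Cntn3* (0.97) lie above 0 and *Cntnap2* (-0.84) and *Cntn5* (-1.05) below, while no partner passed.

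The other members gave no difference past the threshold. *Cntn2*, or TAG-1, marks growing axons and serves neurons that migrate along them, and it was the best measured of these, with 22.1 to 38.7 CPM in wild-type embryos against 16.2 to 32.6 CPM in Lmx1a-/- embryos. Its means were 27.3 ± 6.88 and 25 ± 7.15 CPM (FDR = 0.807, edgeR's quasi-likelihood test), with a 95% interval of -0.58 to 0.31 for the log2 fold change. Whether it differed in this from *Cntnap2*, its partner at the juxtaparanode, was not tested. *Cntn1*, a ligand of Notch and of receptor phosphatases, was at 4.85 ± 1.56 CPM in wild-type against 3.68 ± 2.05 CPM in Lmx1a-/- embryos (log2 interval -1.19 to 0.4). *Cntn4*, which guides olfactory axons and binds App, had 3.83 ± 3.28 and 3.09 ± 0.746 CPM (-1.33 to 0.7), where wild-type embryo 3 alone had 9.18 CPM against 1.08 to 4.63 CPM in the other wild-type embryos.

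The remaining members were close to the limit of detection. *Cntn6*, or NB-3, was at 1.08 ± 0.762 CPM in wild-type against 0.837 ± 0.425 CPM in Lmx1a-/- embryos, from 6 to 76 counts. *Cntnap1*, the paranodal Caspr, was at 1.19 ± 0.917 and 0.64 ± 0.538 CPM from 2 to 45 counts (3.97% of its exon sequence overlaps the antisense gene *Plekhh3*), and the interval of its log2 fold change was the widest, from -2.63 to 0.82. *Cntnap5a* had 12, 0, 18, 0 and 1 counts in wild-type embryos 1 to 5, and 2, 7, 0, 0 and 5 in Lmx1a-/- embryos 1 to 5, so a difference was not detectable at this depth. Of the family relatives outside the 10 genes, *Cntnap5b* was at 0.829 ± 0.539 and 1.25 ± 0.809 CPM (FDR = 0.665, edgeR's quasi-likelihood test), and *Cntnap3* and *Cntnap5c* had at most 7 counts in a library.

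With levels moving in both directions, the make-up of the family differed between genotypes. Of the CPM summed over the members, *Cntnap2* took between 73.6% and 88.2% in wild-type embryos and between 65.3% and 72.3% in Lmx1a-/- embryos. Per kb of exon, the level of *Cntnap2* was 6.54 to 17.7 times that of *Cntnap4* in wild-type embryos and 2.47 to 3.34 times in Lmx1a-/- embryos. *Cntn3* stood at 0.839 to 1.74 times the level of *Cntn5* in wild-type and at 4.2 to 9.08 times in Lmx1a-/- embryos. These genes were paired because they moved in opposite directions, so the ratios are a description and were not tested.

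**Figure D3:**
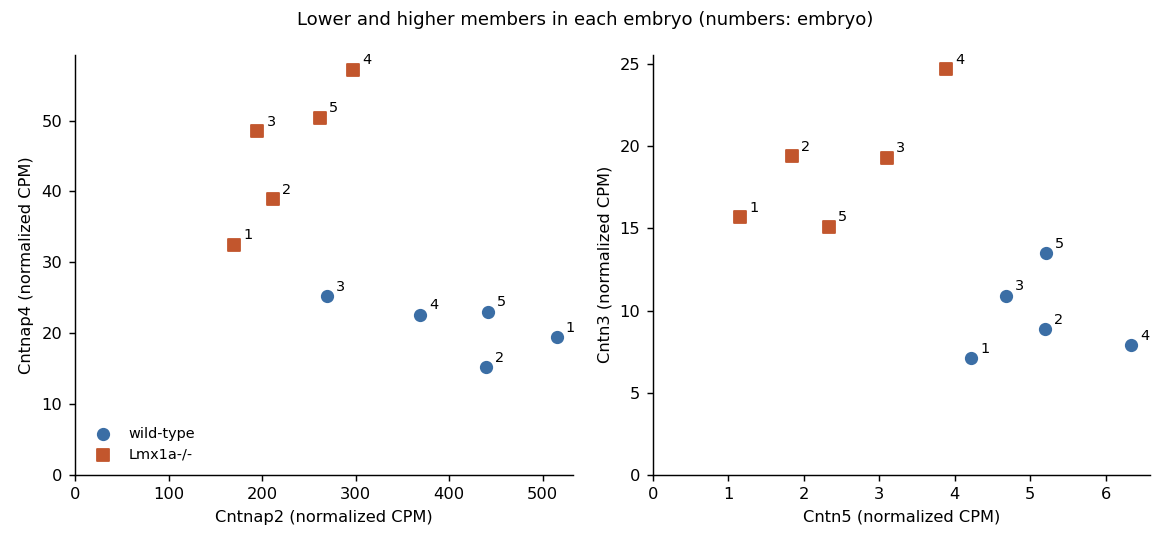
Per-library levels, in normalized CPM on linear axes, of *Cntnap4* against *Cntnap2* and of *Cntn3* against *Cntn5*, with 1 point per embryo and color for genotype. Wild-type and Lmx1a-/- embryos form separate groups in both panels, as the choice of the genes fixes; wild-type embryo 3 lies nearest to the Lmx1a-/- embryos for *Cntnap2* and *Cntnap4*.

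In Lmx1a-/- CH the order of the levels was close to that of wild-type CH. *Cntnap2* was still the highest with 22.2 ± 5.03 CPM per kb and *Cntnap4* second with 7.24 ± 1.56, and the libraries of both were apart from each other and from the next gene. *Cntn3* came next with 2.8 ± 0.567 CPM per kb, overlapping with *Cntn2* (2.69 ± 0.769), which was above it in wild-type CH. *Cntn5* followed with 0.544 ± 0.234 CPM per kb and here overlapped with *Cntn1* (0.39 ± 0.217) and *Cntn4* (0.365 ± 0.0879).

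The proteins that the family binds were described by a list of 25 partners, of which 24 were in the table and 23 tested. With edgeR's quasi-likelihood test 0 of 23 passed, 6 had an unadjusted p under 0.05 (2 lower, 4 higher), and the median log2 fold change was 0.079. Over all tested genes, 4.02% passed this test in either direction and 16.4% had such a p. DESeq2 called 3 of them higher, *Nfasc*, *Ptprz1* and *Ank2*, and edgeR's likelihood ratio test called *Ptprz1* and *Ank2*, where these tests called 9.89% and 6.28% of all genes with an adjusted p. With an embryo left out, the quasi-likelihood test called 3 higher without wild-type embryo 3, 2 without Lmx1a-/- embryo 3, 1 without wild-type embryo 5 and 0 in the other fits. The cytoplasmic anchor *Ank2* was at 134 ± 31.9 CPM in wild-type against 205 ± 56 CPM in Lmx1a-/- embryos (log2 fold change 0.61, SE 0.18, FDR = 0.101). The receptor phosphatase *Ptprz1*, to which contactin 1 binds, was at 135 ± 18.8 and 243 ± 122 CPM (0.85, SE 0.25, FDR = 0.104), with 453 CPM in Lmx1a-/- embryo 5. Both therefore lay just outside the threshold.

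The other partners named by role had larger p. Among L1 family proteins, *Nfasc*, the glial and axonal partner of the paranodal pair, was at 58.8 ± 8.56 and 74.5 ± 9.45 CPM (0.34, SE 0.12, FDR = 0.159), and *L1cam* at 18.3 ± 9.1 and 26 ± 6.91 CPM (FDR = 0.422). Of the extracellular ligands, the proteoglycan *Ncan* was at 82.6 ± 33.4 and 125 ± 37.5 CPM (FDR = 0.25) and tenascin C (*Tnc*) at 29.3 ± 15.4 and 16.3 ± 6.92 CPM (FDR = 0.256). The amyloid precursor relatives *Aplp1* and *Aplp2* had FDR of 0.237 and 0.324, the potassium channels *Kcna2* and *Kcna1* 0.524 and 0.698, and the anchor *Epb41l2* 0.454, all from edgeR's quasi-likelihood test. *Kcna2* had only 0.531 ± 0.522 and 1.2 ± 0.789 CPM, so the channels that Caspr2 gathers in mature axons were barely detected.

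*Cntnap4*, the member with the smallest p, was compared by profile with 11548 genes of at least 5 CPM. Likeness was the root mean square distance between log2 profiles over the 10 libraries, each centered on its own mean. The nearest gene was *Lrrn3*, a leucine-rich repeat protein of neurons, at a distance of 0.145, which went from 18.3 to 44.8 CPM (FDR = 0.00191, edgeR's quasi-likelihood test). *Gm26936* (0.244), *Gm42973* (0.256), *Cmc4* (0.26) and *Gm36955* (0.262) came next. Of the other members at this level, *Cntn3* was at rank 17 with 0.298, *Cntn2* at rank 8680 with 0.737 and *Cntnap2* at rank 11052 with 1.04. The profiles span both genotypes, so genes called higher tend to lie near *Cntnap4* and genes called lower far from it. These ranks therefore repeat the calls and are a description, not a test.

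Genes next to the 4 members that passed are given beside all tested genes, of which 4.02% were called in either direction. No test set the counts below against that share. Of the protein-coding genes that start within 1000 kb, 0 of 10 tested passed around *Cntnap2* and 0 of 3 around *Cntn5* (edgeR's quasi-likelihood test). Around *Cntn3*, 1 of 2 passed: *Pdzrn3* fell from 54.9 to 39.2 CPM (log2 fold change -0.49, SE 0.12, FDR = 0.066), against the direction of *Cntn3*. Around *Cntnap4*, 1 of 14 passed: *Terf2ip*, a telomere protein, rose from 50.9 to 67.4 CPM (0.4, SE 0.07, FDR = 0.00873).

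Library totals lay between 19145952 and 36462780 counts, so 1 CPM stood for 18.4 to 36.1 counts. *Lmx1a* itself was counted in every library, at 71.2 ± 18.2 CPM in wild-type against 114 ± 21 CPM in Lmx1a-/- embryos (log2 fold change 0.68, FDR = 0.0658, edgeR's quasi-likelihood test), and gene-level counts do not tell its *drJ* transcripts from intact ones, so this does not check the genotype. The X chromosome transcript *Xist* moved with genotype in all but wild-type embryo 1. It was between 4400 and 5170 CPM in wild-type embryos 2 to 5 and at most 1.15 CPM in wild-type embryo 1 and all Lmx1a-/- embryos. In wild-type embryo 1, a single library, *Cntnap2* was at 515 CPM, *Cntn5* at 4.22, *Cntnap4* at 19.4 and *Cntn3* at 7.09 CPM. These values lay outside the range of the Lmx1a-/- embryos, but for *Cntn5*, *Cntnap4* and *Cntn3* this held for every wild-type embryo. A single library cannot tell the part of *Xist* from that of genotype. With *Xist* as a covariate none of the members passed (given with the other covariates).

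Markers of cell types also moved with genotype. Over all tested genes, 4.02% passed in either direction. Of 9 tested CR cell markers, *Reln*, *Trp73*, *Lhx1* and *Car10* fell and *Lhx5* rose, and *Calb2* was under 1 CPM throughout. The summed level of the list was 335 to 546 CPM in wild-type against 223 to 317 CPM in Lmx1a-/- embryos. The study had already reported *Reln*, *Trp73*, *Lhx1*, *Car10*, *Cacna2d2* and *Lhx5* as changed in these data. The calls and the sum of this list are therefore not independent of that report. Of 9 choroid plexus markers, *Ttr*, *Slc4a5* and *Calml4* fell (sum 86.7 to 433 against 118 to 185 CPM, with *Kl* under 1 CPM). Of 10 CH markers, *Bmp7*, *Msx1*, *Wnt2b* and *Wnt5a* fell (1620 to 3100 against 1810 to 2870 CPM), and CH markers were thus present in both genotypes. *Nr2e1* rose among 4 cortical neuroepithelium markers (229 to 541 against 422 to 640 CPM) and *Vim* among 10 of radial glia (3450 to 4580 against 4510 to 5730 CPM).

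In the lists that follow, counts at an unadjusted p under 0.05 stand beside 16.4% of all tested genes. Of 14 neuron markers, 0 passed with edgeR's quasi-likelihood test, 4 had an unadjusted p under 0.05, all higher, DESeq2 called 1 and the likelihood ratio test 0 (900 to 1420 against 1010 to 1590 CPM). *Pdgfra* fell among 6 oligodendrocyte lineage genes, where *Mag* and *Olig1* were under 1 CPM (59.6 to 73.6 against 38.2 to 57.9 CPM). *Dcn* and *Lum* fell among 8 genes of mesenchyme and meninges (316 to 906 against 244 to 507 CPM). Of 8 blood genes 0 passed, 5 had an unadjusted p under 0.05, all lower, and DESeq2 and the likelihood ratio test called 4 each (632 to 1470 against 267 to 573 CPM). Endothelium (21.6 to 78 against 19.4 to 50.4 CPM) and microglia (13.8 to 30.6 against 16.3 to 31.2 CPM) had 0 of 7 each by all 3 tests, with 1 unadjusted p under 0.05 in each. No marker was at 0 in all libraries.

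**Figure D4:**
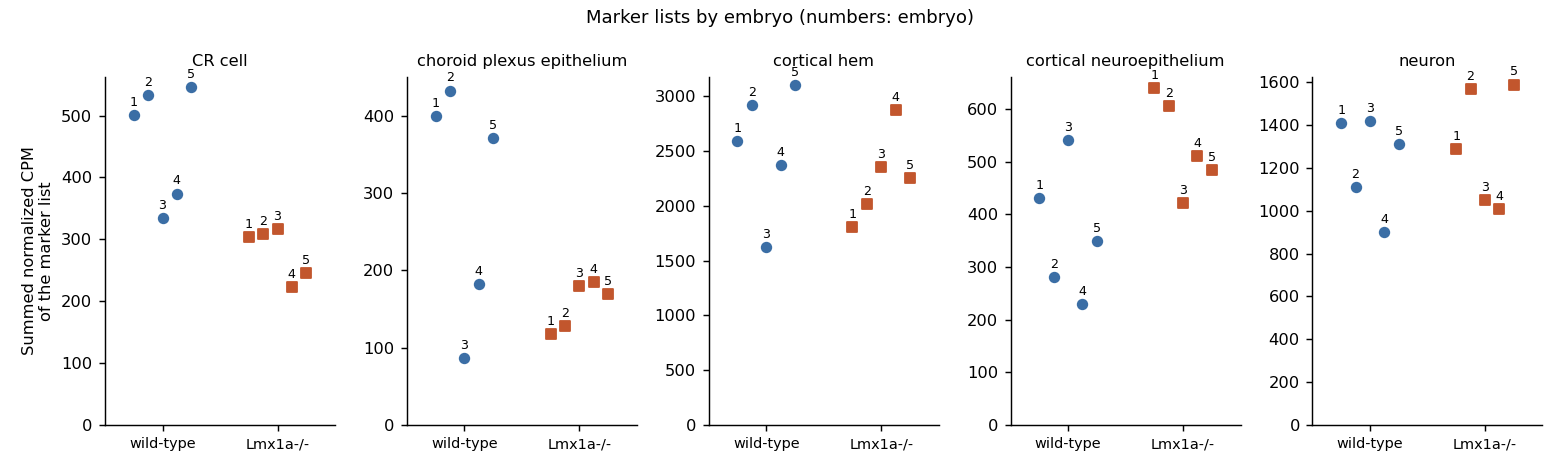
Summed CPM of marker lists in each library, with 1 point per embryo for wild-type and Lmx1a-/- CH. CR cell markers are lower in every Lmx1a-/- embryo (at most 317 CPM) than in any wild-type embryo (at least 335 CPM), and wild-type embryo 3 has the least choroid plexus and CH and the most cortical neuroepithelium signal of the wild-type embryos.

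Wild-type embryo 3 had the lowest choroid plexus (86.7 CPM), CH (1620 CPM) and CR cell (335 CPM) sums of the wild-type embryos. Its cortical neuroepithelium sum (541 CPM) was the highest of them, and none of these sums was among the results flagged for a closer look. This embryo also had the lowest *Cntnap2* and the highest *Cntn2*, *Cntn4* and *Cntn6* of that genotype. Without it, the log2 fold changes of *Cntn2*, *Cntn4* and *Cntn6* turned from below to above 0 (0.02, 0.3 and 0.08), still short of the threshold, while *Cntnap2*, *Cntn3* and *Cntnap4* passed in all 10 fits with an embryo left out.

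With *Xist*, choroid plexus or CR cell level as a covariate, none of the members passed an FDR of 0.1, and these fits called between 1 and 56 of all tested genes in a given direction. With *Xist* in the fit, the log2 fold changes were -1.18 for *Cntnap2*, -0.72 for *Cntn5*, 1.26 for *Cntnap4* and 1.39 for *Cntn3*. With the choroid plexus markers they were -0.37, -1.04, 0.91 and 0.84, and with the CR cell markers -0.59, -1.18, 0.61 and 0.9, in the same order. With cortical neuroepithelium markers only *Cntnap4* passed. All of them kept their direction. The part of these markers and of *Xist* in the differences was not tested beyond these fits, since each moved with genotype.

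**Figure D5:**
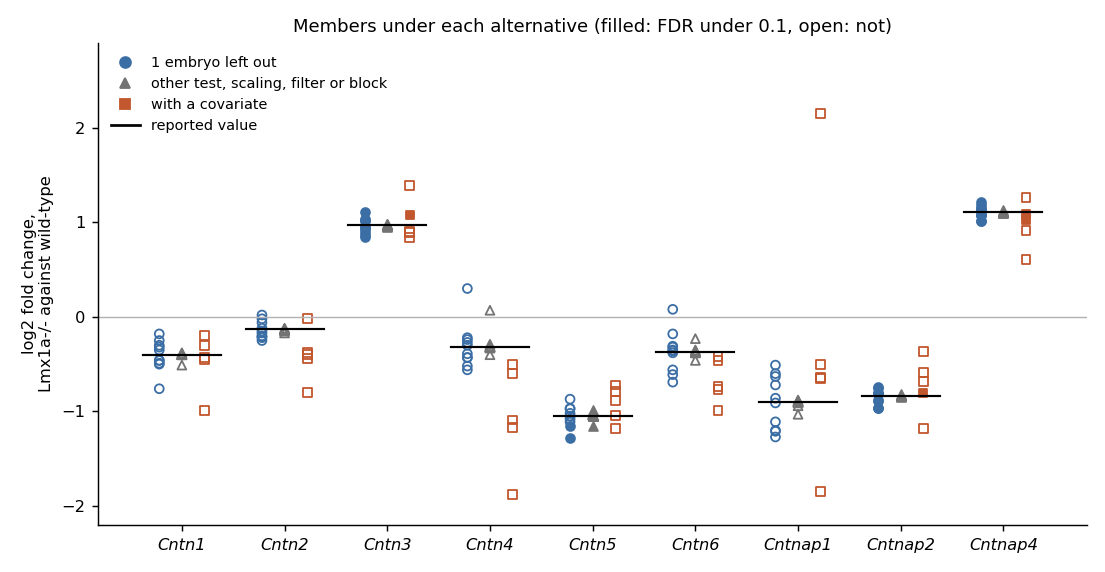
Log2 fold change of the 9 tested members in the main fit (lines) and under each alternative (points). Points are filled where the FDR was under 0.1 and open where it was not. All points of *Cntnap2*, *Cntn5*, *Cntnap4* and *Cntn3* lie on one side of 0 for each gene. Their open points are mainly fits with a covariate and, for *Cntn5*, fits with an embryo left out. The other members have open points only, and those of *Cntn2*, *Cntn4*, *Cntn6* and *Cntnap1* lie on both sides of 0.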

How the data were processed

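RNA was isolated from laser-captured CH, and the sections of each embryo went into a single library. According to the study's methods, the authors checked reads with FastQC 0.11.8, trimmed them with Trimmomatic, aligned them to GRCm38 with STAR 2.7.1a and counted them per gene with HTSeq 0.11.2. The deposited values are raw counts. The strand setting of HTSeq is not given in the sources used here. Exact repeats of a row (281 of 52508) were dropped, and 52083 of the 52227 genes carry a symbol. Genotype and embryo number came from the labels. The study calls the wild-type embryos littermates of the mutants, and which embryos shared a litter is not given in the sources used here.

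Counts were scaled by TMM and genotypes compared in R 4.3.3 with edgeR 4.0.16 (quasi-likelihood test, trended dispersion, two-sided, no covariate, all 10 libraries), with Benjamini-Hochberg adjustment over all tested genes. The SE is the log2 fold change divided by the square root of F. Alternatives were other scaling, other filters on low counts, DESeq2 1.42.0, edgeR's likelihood ratio test and newer dispersion method, an embryo block, covariates, an FDR of 0.05, mitochondrial genes left out (20.6% to 27.6% of counts) and each embryo left out. The covariates of cortical neuroepithelium and neuron markers were added after seeing the data. Exon length is the union of exons in GENCODE M21.

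The members and lists were chosen with earlier results of these data known. Named are all members and their relatives, partners past the threshold or otherwise up to 2 of each role with the smallest p, *Lmx1a*, the 5 profiles nearest to the member with the smallest p, and coding neighbors of called members that passed. The partner *Ptprg* was on the list but was not found by its symbol in the count table, so it was not analysed. The scripts were tested on simulated data.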

Additional observations from a re-analysis of the deposited data

Results flagged for a closer look

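In 85 groups of 5 embryos (61 of single named genes, the others of summed markers and of the share of *Cntnap2*), the sample farthest from the rest was compared with the range of its group, with 0.71 as the critical ratio of gap to range. Chance alone gives such a flag in about 5% of groups, and 7 were found. *Ank2* was at 302 CPM in Lmx1a-/- embryo 5, against 165 to 198 CPM in the other Lmx1a-/- embryos (ratio 0.756). *Xist* was at 1.01 CPM in wild-type embryo 1, against 4400 to 5170 CPM in the other wild-type embryos (0.851). *Cntnap2* took 73.6% of the summed CPM of the members in wild-type embryo 3, against 84.4% to 88.2% in the other wild-type embryos (0.737). Summed markers stood apart in 4 groups: radial glia (3450 CPM, ratio 0.782) and oligodendrocyte lineage (59.6 CPM, 0.753) in wild-type embryo 4, endothelium in Lmx1a-/- embryo 4 (19.4 CPM, 0.764) and blood in wild-type embryo 1 (1470 CPM, 0.829).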

How the results depend on the processing

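Of the 2 members that were lower, 1 (*Cntnap2*) passed with upper quartile scaling, without a filter on low counts, with the neuron markers as a covariate or at an FDR of 0.05, and 0 passed with *Xist*, choroid plexus, CR cell or cortical neuroepithelium markers as a covariate (1 to 2 with an embryo left out). Of the 2 that were higher, 0 passed with *Xist*, choroid plexus or CR cell markers and 1 (*Cntnap4*) with cortical neuroepithelium markers (2 in every fit with an embryo left out). Of the partners, 2 were higher with upper quartile scaling, library size only, no filter, the likelihood ratio test or the newer dispersion method, 3 with DESeq2 and 1 with mitochondrial genes left out (0 to 3 with an embryo left out).

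Over all genes, the 497 lower calls became 976 with DESeq2, 805 with the likelihood ratio test, 26, 46, 8, 71 and 230 with *Xist*, choroid plexus, CR cell, cortical neuroepithelium and neuron covariates, and 251 at an FDR of 0.05 (261 to 604 with an embryo left out). The 373 higher calls became 790 with DESeq2, 1, 56, 1, 48 and 202 with the same covariates in that order, and 197 at an FDR of 0.05 (190 to 455 with an embryo left out). Both counts were lowest without Lmx1a-/- embryo 4 and also over 1.5 times lower without wild-type embryo 1 or 2 or Lmx1a-/- embryo 5, with 291 and 213, 315 and 236, and 308 and 238 calls, and the lower count without Lmx1a-/- embryo 2 (328). The cause was not tested.

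Same-numbered embryos did not deviate together, with correlations between -0.0985 and 0.0133, and 0 of 5 wild-type embryos correlated best with their own number. The profiles thus showed no pairing by number, and whether equal numbers shared a litter is not given. The replicate block gave 353 lower and 248 higher genes, left the calls of the members as they were, and turned *Cntn4* to 0.07. Other log2 fold changes that crossed 0 were *Cntnap1* (2.15 with the *Xist* covariate) and, without wild-type embryo 3, *Cntn2*, *Cntn4* and *Cntn6*, whose values with an embryo left out ran from -0.25 to 0.02, -0.56 to 0.3 and -0.69 to 0.08, none past the threshold. Depth limits *Cntn6*, *Cntnap1* and *Cntnap5a* most.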
